A study of Mus musculus with 8 samples.

Results

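Gene expression of unstimulated Treg cells was compared between 2 libraries labelled Stim1/2-deficient and 2 WT libraries, chosen by their labels from a series of 8 libraries. The 4 unstimulated libraries were WT replicates 3 and 4 and Stim1/2-deficient replicates 1 and 2, and the other 4 came from cells of the same genotypes after 16 h on plates coated with anti-CD3/CD28 at 1 µg/ml. Deficient mice were C57BL/6 and carried loxP-flanked alleles of Stim1 and of Stim2 (fl/fl) with Foxp3-YFPcre, in which the Foxp3 gene drives a Cre recombinase fused to yellow fluorescent protein. As the study's methods describe, a sample was a pool from the spleens and lymph nodes of a number of heterozygous females, in which 1 X chromosome of each cell is active. The same floxed mice thus gave both groups, the WT cells being sorted as CD4+CD25hi YFPcre- and the deficient cells as CD4+CD25hi YFPcre+. Loss of Stim1 and Stim2 cannot be told apart from use of the Foxp3-YFPcre allele, since the WT cells did not express that allele. No label says that replicates came from separate sets of mice, so p-values measure only the spread between these samples, and no agent was added to the unstimulated cells.

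Treg cells are CD4+ T cells that hold other immune cells in check and are defined by the transcription factor Foxp3. STIM1 and STIM2 sense the calcium content of the endoplasmic reticulum and open ORAI channels in the plasma membrane, a route called store-operated calcium entry. The calcium that enters activates the phosphatase calcineurin, which lets NFAT factors enter the nucleus, and it also acts on kinases, metabolism and the cytoskeleton. Genes that the paper names were set aside here, and the question was which other functions and gene classes differed between the genotypes in cells that had not been restimulated.

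For Stim1, WT libraries had 1139 and 1377 normalized counts and deficient-labelled ones 1538 and 1868. For Stim2 the values were 906 and 908 in WT and 904 and 744 in deficient-labelled libraries. Neither gene passed the test, with a log2 fold change of 0.44 (SE 0.20, limma adjusted p = 0.236) for Stim1 and -0.15 (SE 0.20, limma adjusted p = 0.721) for Stim2. A count per gene does not separate the deleted exons from the others, so these values do not show whether the deletion took place, and the groups are named by their labels. Foxp3 itself was at 10001 and 8159 in WT and at 4947 and 4258 in deficient-labelled libraries, a log2 fold change of -0.98 (SE 0.26, limma adjusted p = 0.0591).

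The libraries held 11851853 to 16306540 reads on genes. A normalized count is the number of reads divided by the size factor of its library, so that 1 read was worth 1.05 to 1.48 of these units. Of 10 Treg markers all were detected and 5 were called lower in the deficient-labelled libraries. Those libraries also held more transcripts of other cell types, above all replicate 1. The summed level of 20 macrophage markers was 1225 and 1214 in WT, 14485 in deficient-labelled replicate 1 and 2277 in replicate 2, and 11 of the 18 tested were called higher. Axl alone made up 813 and 827 of the WT sums, and was at 975 in deficient-labelled replicate 1 and 210 in replicate 2. In 16 of the 18, both deficient-labelled libraries were above both WT libraries, beside 26.5% of all tested genes. The 16 B cell markers summed to 2115 and 2002 in WT against 10976 and 2563, with 2 of 15 called higher, and the 10 plasma cell markers summed to 8728 and 7906 against 22595 and 8544, with 2 of 9 called higher. Ighm made up most of the plasma cell sum in WT, at 6446 and 5414 against 11092 and 3279. Jchain was at 38.85 and 72.38 against 1784 and 471, and Igkc at 187 and 388.5 against 5051 and 1492. In 5 of the 9 tested plasma cell markers both deficient-labelled libraries were above both WT libraries, and in 0 both were below. Of neutrophil, dendritic cell, erythroid and CD8 T and NK cell markers none passed, although each list summed highest in deficient-labelled replicate 1. The macrophage markers C1qa and C1qc were at 0 in both WT libraries. In bulk RNA, a change in the number of cells of a type and a change in RNA per cell cannot be told apart.

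The test took in the 15419 genes whose normalized counts averaged 10 or more over the 8 libraries. By limma, 517 of them were called lower (3.35%) and 213 higher (1.38%) in the deficient-labelled libraries. A call required an adjusted p (Benjamini-Hochberg) under 0.05 together with more than 1.5-fold difference. In all 730 called genes the WT libraries were both above or both below the 2 deficient-labelled ones. This separation alone was common, holding for 27.1% of all tested genes on the lower side and 26.5% on the higher side. Of the 100 genes named by the paper, 99 were tested, and 48 were called lower and 5 higher. Beyond these genes, 469 were lower and 208 higher. The number of calls moved with single libraries: 8 lower and 0 higher calls were left without WT replicate 3, 16 and 7 without WT replicate 4, 600 and 178 without deficient-labelled replicate 1, and 924 and 374 without deficient-labelled replicate 2. Each fit with 1 library left in a group took the spread from the other groups. At an unadjusted p under 0.05 with the same fold, 1705 genes were lower and 1338 higher. With edgeR on the recovered reads 353 were lower and 131 higher, and with DESeq2 810 and 511. The lower side held 70.8% of calls, against 59.4% with libraries rescaled to equal totals and 53.7% with equal upper quartiles. Over all tested genes, these rescalings shifted the median log2 fold change up by 0.12 and 0.16.

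Replicates were uneven for part of the called genes in both directions. Among the 213 higher genes, 48 had deficient-labelled libraries more than 2-fold apart, and in 47 of these replicate 1 was the higher. All 15 markers of other cell types that were called higher were among these 48. In the other 165 higher genes the deficient-labelled libraries were within 2-fold of each other. Of the 517 lower genes, 128 had deficient-labelled libraries more than 2-fold apart, and replicate 1 was the higher in 103 of them. The WT libraries were more than 2-fold apart in 1 lower and 41 higher genes.

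**Figure D1:**
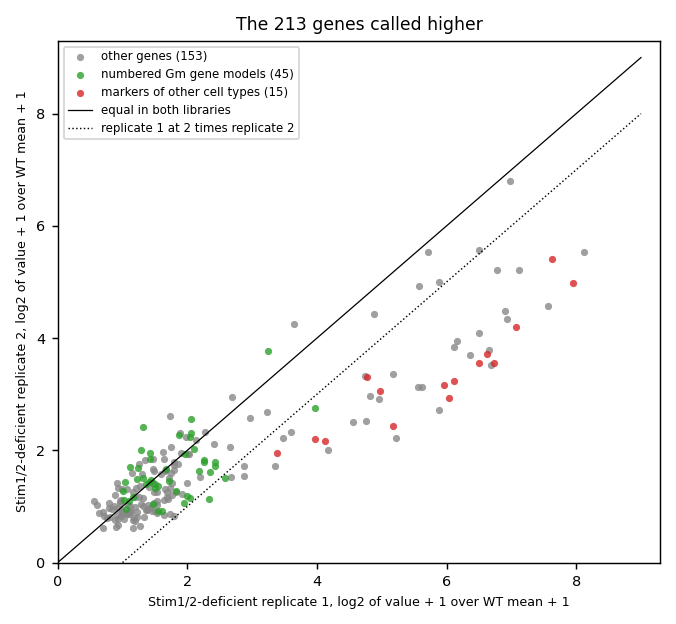
Each point is 1 of the 213 genes called higher, with its level over the WT mean in deficient-labelled replicate 1 on the horizontal axis and replicate 2 on the vertical axis, both as log2 of value + 1. Markers of other cell types (15 genes, red) lie right of the dotted line where replicate 1 is 2 times replicate 2, whereas 41 of the 45 numbered Gm gene models (green) are within 2-fold.

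The largest changes beyond the named genes were found among genes averaging 100 or more normalized counts in the higher group, with 2-fold agreement within it and no place in a marker list. On the lower side, Dusp14, a dual-specificity phosphatase of MAP kinase signalling, had 599 and 555 normalized counts in WT and 37.8 and 28.1 in deficient-labelled libraries. Its log2 fold change was -4.11 (SE 0.50, limma adjusted p = 0.00545). Gas2l3, which links actin and microtubules, fell from 1427 and 1575 to 86.0 and 179, a log2 fold change of -3.58 (SE 0.56, limma adjusted p = 0.0113). In both genes the highest deficient-labelled library was far below the lowest WT library. Ttc39c was at 670 and 669 in WT and at 90.2 and 28.1 in deficient-labelled libraries (log2 fold change -3.70, SE 0.74, limma adjusted p = 0.0252). Wisp1, which encodes a secreted matricellular protein, was at 421 and 393 against 40.9 and 34.7 (log2 fold change -3.40, SE 0.52, limma adjusted p = 0.0111). The cell cycle kinase gene Cdk1 was at 319 and 225 against 47.2 and 12.02 (log2 fold change -3.42, SE 0.64, limma adjusted p = 0.0201). The remaining genes of this rank were Ank3, Rnf152, Ky, Prune2, Cep112, Nckap5, Msrb3, the smooth muscle actin gene Actg2, the connexin gene Gjb2 and 2900026A02Rik. Rnf152 rested on 168 reads in WT and 4 in the deficient-labelled libraries, a ratio of 44.6 with a 95% counting interval of 17.1 to 166. Ank3 was called by neither edgeR nor DESeq2.

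On the higher side, 10 of the 15 genes of the same rank were numbered gene models or unnamed loci with a Gm, AC or Riken identifier, and the named ones were Kirrel3, Oas2, Mctp2, Tgtp1 and Arhgap15os. Tgtp1, an interferon-inducible GTPase, was at 28.1 and 26.6 in WT and 124 and 128 in deficient-labelled libraries. That is a log2 fold change of 2.16 (SE 0.28, limma adjusted p = 0.00643). Mctp2, a membrane protein with C2 domains, was at 115 in both WT libraries and at 618 and 500 in the others, a log2 fold change of 2.26 (SE 0.45, limma adjusted p = 0.0252). The cell adhesion gene Kirrel3 was at 16.2 and 20.7 against 124 and 150 (log2 fold change 2.83, SE 0.57, limma adjusted p = 0.0252). Oas2, an interferon-inducible RNA sensor, was at 32.4 and 32.5 against 211 and 138, and edgeR did not call it.

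**Figure D2:**
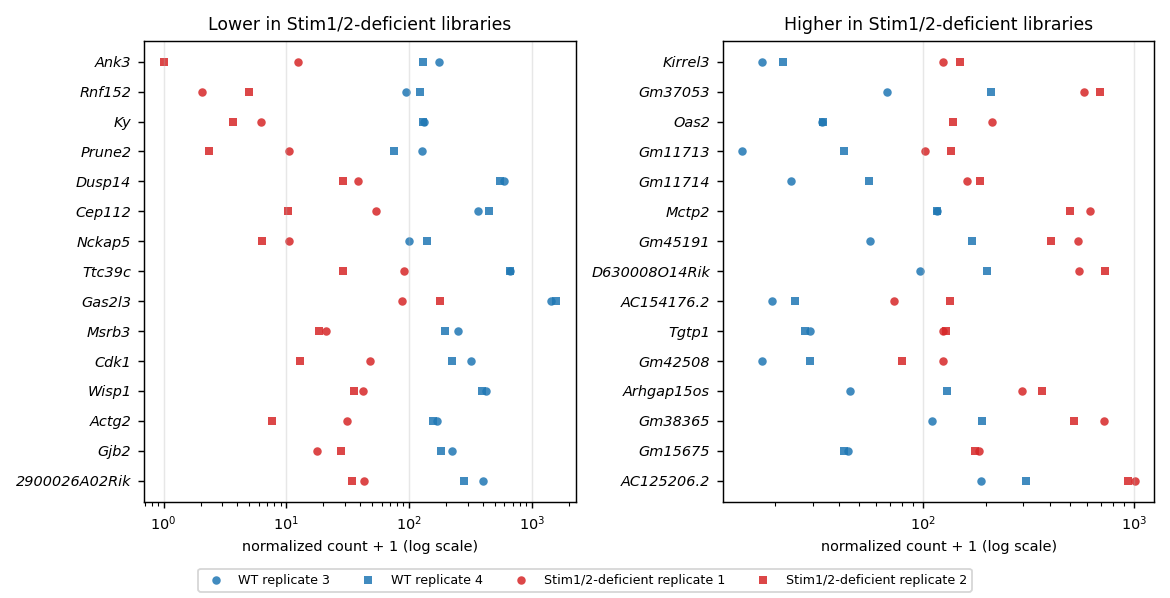
Normalized count + 1 on a log axis in each unstimulated library for the 15 genes with the largest fall (left) and the 15 with the largest rise (right) under the naming rule. Blue marks are WT replicates 3 and 4 and red marks are deficient-labelled replicates 1 and 2. The naming rule took only genes in which the 2 colors do not overlap.

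Among 110 classes of genes defined by symbol or position, 29 had at least 3 called genes beyond the paper's list, of which 27 are described. Tubulins and kinesins, the subunits of microtubules and the motors that walk on them, had the lowest medians of these classes. Of 12 tested tubulins 3 fell and none rose (median log2 fold change -0.70), and of 31 kinesins 5 fell and none rose (median -0.63), where the median of all tested genes was -0.0057. The shares called lower were 25% and 16.1%, beside 3.35% over all tested genes. A class was described only if it had at least 3 calls in these data, so in a small class a high share follows from that choice. The shares of described classes are therefore no measure of enrichment. Tubb5 was at 5524 and 4157 in WT and 2073 and 1998 in deficient-labelled libraries, a log2 fold change of -1.24 (SE 0.19, limma adjusted p = 0.0105). Tuba1b was at 499 and 417 against 138 and 132 (log2 fold change -1.74, SE 0.24, limma adjusted p = 0.00803). Tuba1c also fell. The kinesins that fell were mainly motors of the mitotic spindle. Kif4, which binds chromosomes, was at 996 and 923 against 194 and 78.8 (log2 fold change -2.94, SE 0.48, limma adjusted p = 0.0129). Kif11, which slides spindle microtubules apart, was at 2036 and 1660 against 560 and 191 (log2 fold change -2.49, SE 0.50, limma adjusted p = 0.0252). Kif15 and Kif14 changed by -2.63 and -2.19 on the log2 scale, and edgeR did not call Kif14. Kif13a, a motor of endosomal transport, had 618 and 631 against 252 and 188 (log2 fold change -1.52, SE 0.23, limma adjusted p = 0.011). In all 5 kinesins, deficient-labelled replicate 2 was lower than replicate 1.

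**Figure D3:**
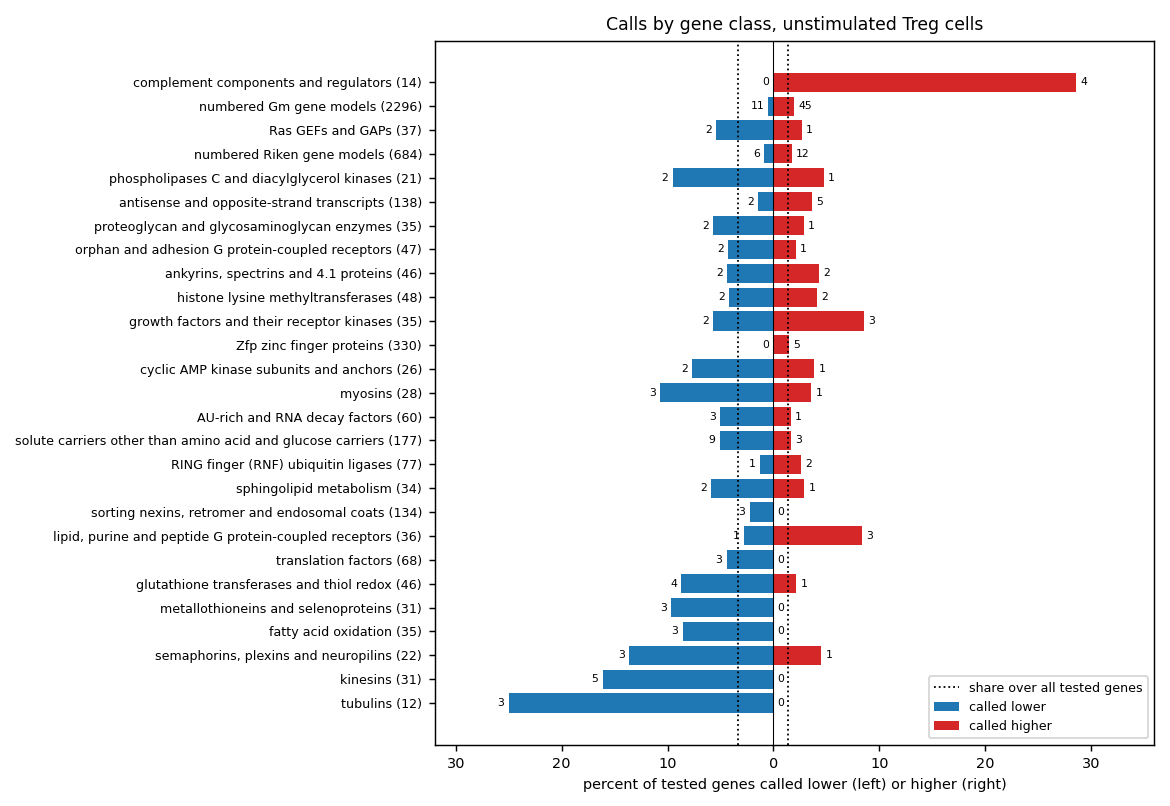
Percent of tested genes called lower (blue, left) and higher (red, right) in each of the 27 described classes, ordered by median log2 fold change, with the number tested in parentheses and the number called at each bar. Dotted lines mark 3.35% and 1.38%, the shares over all tested genes, and the tubulins, kinesins and semaphorins reach farthest left and the complement genes farthest right. Only classes with at least 3 calls beyond the paper's list were described, so a high share in a small class follows from that choice. Some complement genes passed the expression filter only through the unstimulated deficient-labelled libraries.

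Regulators of Ras-family GTPases had few calls, on both sides. In the Ras and Rap group 2 of 37 tested were called lower (5.4%) and 1 higher (2.7%). Over all tested genes these shares were 3.35% and 1.38%. In that group 2 exchange factors for Rap moved oppositely. Rapgef5 fell from 401 and 360 to 103 and 34.7 (log2 fold change -2.65, SE 0.51, limma adjusted p = 0.0225). Rapgef4, which is activated directly by cyclic AMP, rose from 155 and 201 to 591 and 450 (log2 fold change 1.54, SE 0.30, limma adjusted p = 0.0231). Ralgds was also lower. The median of this group was 0.46, and 22 of its 37 genes were separated on the higher side (59.5%, beside 26.5% over all tested genes). Of 28 myosin genes, the membrane-linked Myo1e and Myo1g and the light chain Myl12a fell, by 1.48, 1.08 and 0.87 on the log2 scale, and the filopodial Myo10 rose, with a log2 fold change of 0.90.

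Messenger RNA decay factors included the gene with the lowest adjusted p of all 126 genes under the naming rule. Zc3h12c belongs to the Regnase family of CCCH zinc finger proteins, which degrade inflammatory mRNAs. It had 1846 and 1906 normalized counts in WT and 232 and 267 in deficient-labelled libraries, a log2 fold change of -2.91 (SE 0.25, limma adjusted p = 0.000846). Its relative Zc3h12d was at 1248 and 1254 against 465 and 292 (log2 fold change -1.76, SE 0.25, limma adjusted p = 0.0088). Zfp36l1, which binds AU-rich elements and promotes decay, was at 1938 and 1672 against 1029 and 982 (log2 fold change -0.84, SE 0.19, limma adjusted p = 0.0349). Smg1, the kinase of nonsense-mediated decay, moved the other way, from 10653 and 12051 to 17648 and 20955 (log2 fold change 0.76, SE 0.17, limma adjusted p = 0.0374). These were the only 4 called among 60 tested, 5% lower and 1.67% higher, with a median of -0.07. Over all tested genes the shares were 3.35% and 1.38%. Translation factors mostly had small negative log2 fold changes, with 57 of 68 below 0, 34 separated below, 3 separated above and a median of -0.29. The separated shares were 50% below and 4.41% above, against 27.1% and 26.5% over all tested genes. Over protein-coding genes of RefSeq they were 32.7% and 21%. After rescaling to equal totals or upper quartiles, 52 and 48 of the 68 were below 0. Only 3 passed (4.41%), Eif5a, Eif6 and the double-stranded RNA-activated kinase gene Eif2ak2, with log2 fold changes of -0.94, -1.11 and -0.91. Of these 3, edgeR did not call Eif6 and Eif2ak2.

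Genes of thiol redox chemistry formed another group. Thioredoxin and glutaredoxin keep protein thiols reduced, peroxiredoxins use them to remove peroxide, and TXNIP binds and inhibits thioredoxin. Txn1 fell from 1644 and 1356 to 645 and 508 (log2 fold change -1.38, SE 0.24, limma adjusted p = 0.0161), and Glrx fell from 509 and 538 to 210 and 118 (log2 fold change -1.73, SE 0.29, limma adjusted p = 0.0148). Txnip rose from 2446 and 2223 to 4628 and 5792 (log2 fold change 1.15, SE 0.24, limma adjusted p = 0.0287). Prdx4 and Prdx1 were the other genes called lower, with log2 fold changes of -1.21 and -0.80, and edgeR did not call Prdx4. Of the 46 tested members 24 were separated below and 6 above, with a median of -0.32. These were 52.2% and 13%, against 27.1% and 26.5% over all tested genes and 32.7% and 21% over protein-coding genes of RefSeq. Called lower were 8.7% and higher 2.17%, beside 3.35% and 1.38%. Among 31 metallothioneins and selenoproteins 3 fell (9.68%) and none rose. Msrb3, which repairs oxidized methionine, was at 249 and 195 in WT and at 19.9 and 17.4 in deficient-labelled libraries, a log2 fold change of -3.50 (SE 0.48, limma adjusted p = 0.00784). Selenoh and the metal-binding Mt1 were also lower, and edgeR did not call Mt1.

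**Figure D4:**
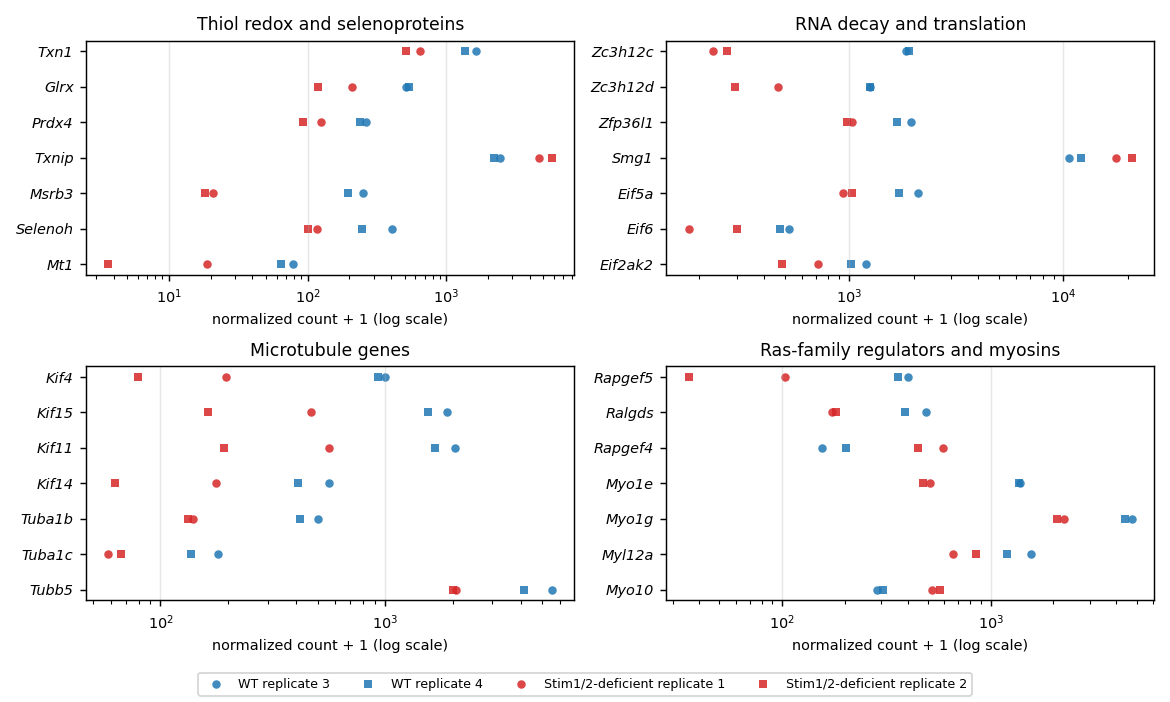
Normalized count + 1 on a log axis in each unstimulated library for 28 called genes in 4 groups: thiol redox and selenoproteins, RNA decay and translation, microtubule genes, and Ras-family regulators with myosins. Txnip, Smg1, Rapgef4 and Myo10 lie higher in the deficient-labelled libraries (red) and the other 24 lie lower.

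Lipid and second messenger enzymes had few calls each. In fatty acid oxidation 3 of 35 fell (8.57%, beside 3.35% over all tested genes) and none rose (median -0.43). They were the acyl-CoA thioesterase gene Acot7, at 243 and 167 against 60.8 and 45.4 (log2 fold change -1.92, SE 0.29, limma adjusted p = 0.0106), and Hadh and Etfa, with log2 fold changes of -0.98 and -0.90. Among 34 genes of sphingolipid metabolism the ceramide synthase gene Cers4 and the desaturase gene Degs1 fell, by 1.25 and 0.86 on the log2 scale, and Degs2 was called higher at 121 in deficient-labelled replicate 1 and 49.4 in replicate 2. Phospholipase C cleaves a membrane lipid into the messengers that release calcium and activate protein kinase C, and diacylglycerol kinase removes the second of them. Plcb4 fell from 1472 and 1584 to 501 and 276 (log2 fold change -2.03, SE 0.33, limma adjusted p = 0.0126), and Dgkd rose from 1562 and 1338 to 2771 and 2861 (log2 fold change 0.96, SE 0.21, limma adjusted p = 0.033). Plcd1 was lower at few counts. In the cyclic AMP group, the kinase subunit gene Prkar1a and the anchor gene Akap1 were lower and the cyclase gene Adcy6 was higher, and edgeR called none of these 3.

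Surface receptors and secreted factors also moved in both directions. Semaphorins and plexins are guidance ligands and receptors that also act between immune cells, and 3 of 22 fell and 1 rose (median -0.55). These shares were 13.6% and 4.5%, beside 3.35% and 1.38% over all tested genes. Sema4b was at 1857 and 1691 in WT and 747 and 493 in deficient-labelled libraries (log2 fold change -1.55, SE 0.23, limma adjusted p = 0.0105). Sema4a went the other way, from 72.3 and 75.3 to 245 and 211 (log2 fold change 1.61, SE 0.36, limma adjusted p = 0.037). The receptor gene Plxnd1 and the semaphorin mediator gene Crmp1 were lower, by 1.30 and 2.17. Of G protein-coupled receptors, Gpr65, which senses protons, fell from 802 and 737 to 344 and 299 (log2 fold change -1.26, SE 0.23, limma adjusted p = 0.0199). Gpr55 had 779 and 414 in WT and 135 and 34.7 in deficient-labelled libraries (log2 fold change -3.03, SE 0.58, limma adjusted p = 0.0225). Ednrb, an endothelin receptor gene, rested on 92 reads in WT and 2 in deficient-labelled libraries, a ratio of 48.8 with a 95% counting interval of 13.1 to 409. Higher receptors were Lpar6, for lysophosphatidic acid, at 343 and 490 against 880 and 1039 (log2 fold change 1.22, SE 0.26, limma adjusted p = 0.0322), and Vipr1, for vasoactive intestinal peptide, at 41.0 and 26.6 against 120 and 120. Penk, the precursor of enkephalin peptides, fell from 1066 and 864 to 175 and 90.8 (log2 fold change -2.92, SE 0.34, limma adjusted p = 0.00502), and Csf1 was lower as well.

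Some higher genes in these classes followed deficient-labelled replicate 1. P2ry13, Adgre1, Mertk, Csf1r and Igf1 were at 120, 667, 776, 1685 and 568 there and at 24.04, 76.1, 103, 227 and 70.8 in replicate 2, against at most 28.1 in a WT library. The same held for the 4 complement genes called higher, C6, C1qb, C1qc and Cr2, of 14 tested, and for Slc40a1, the iron exporter, at 7.55 and 5.91 in WT, 1040 in replicate 1 and 142 in replicate 2. March1, Ank2 and Epb41l3 had the same order. C6, C1qb, C1qc, Igf1 and Slc40a1 stayed under 10 in every library other than the unstimulated deficient-labelled ones, stimulated cells included. They thus passed the filter on the mean only through the libraries in which they are high. The 28.6% of complement genes called higher, beside 1.38% over all tested genes, depends on that filter. C1qc had no read in WT and was at 197 in replicate 1 and 41.4 in replicate 2. Of these genes, 6 are themselves in the macrophage list and Cr2 is in the B cell list. The other 14 macrophage markers summed to 1176 and 1161 in WT and to 9751 and 1636 in deficient-labelled replicates 1 and 2. Of these sums, Axl alone made up 813 and 827 in WT, 975 in replicate 1 and 210 in replicate 2. The other 15 B cell markers summed to 2080 and 1962 in WT against 10369 and 2387. Both sums were thus highest in replicate 1, and their part in the result was not tested. Without deficient-labelled replicate 1, the complement class had 1 call and the growth factor class 0 on the higher side.

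Transporters, endosomal coats and surface glycans held few calls in either direction, beside 3.35% lower and 1.38% higher over all tested genes. Of 177 solute carriers other than those of amino acids and glucose, 9 fell (5.08%) and 3 rose (1.69%), with a median of -0.08. The zinc importer gene Slc39a4 was at 209 and 162 against 56.6 and 17.4 (log2 fold change -2.51, SE 0.50, limma adjusted p = 0.0241), and the zinc transporter gene Slc30a2 rested on 36 reads in WT and 2 in deficient-labelled libraries. Slc16a5 was called higher at 141 in replicate 1 and 57.4 in replicate 2. Of 134 genes of endosomal coats and sorting, 3 fell (2.24%) and none rose. Arl5a, a small GTPase of the trans-Golgi, was at 4017 and 3513 against 1235 and 1257 (log2 fold change -1.59, SE 0.18, limma adjusted p = 0.00409), and Vps54 and Adap1 were lower too. Sdc4, a heparan sulfate proteoglycan of the cell surface, fell from 806 and 759 to 230 and 295 (log2 fold change -1.58, SE 0.24, limma adjusted p = 0.00999), with the sulfotransferase gene Chst2 also lower. Sulf2, which removes sulfate from heparan chains, was higher, at 57.2 and 63.5 against 207 and 140, and edgeR did not call it.

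In the nucleus, zinc finger genes with a Zfp symbol had 5 higher and none lower of 330 tested (median 0.02). The higher share of 1.515% was near the 1.38% over all tested genes, and 22.7% were separated above against 26.5%. Separated below were 18.8%, against 27.1%. Over protein-coding genes of RefSeq alone, 1.12% were called higher and 4.2% lower, with 21% separated above and 32.7% below. The 5 were Zfp2, Zfp354c, Zfp420, Zfp652 and Zfp318, of which edgeR did not call Zfp354c and Zfp420. Zfp652 was at 796 and 851 in WT and at 1926 and 1445 in deficient-labelled libraries (log2 fold change 1.02, SE 0.22, limma adjusted p = 0.0302). Among 48 histone lysine methyltransferases Nsd2, which methylates lysine 36 of histone H3, fell from 3260 and 2737 to 1446 and 1084 (log2 fold change -1.25, SE 0.27, limma adjusted p = 0.0322). Kmt2c, which acts at enhancers, rose from 8676 and 9791 to 15072 and 16331 (log2 fold change 0.77, SE 0.16, limma adjusted p = 0.0305), and Prdm15 was higher as well. Of 77 RNF and related ubiquitin ligases, Rnf213 was the only called one that was higher with its libraries within 2-fold, at 5036 and 5037 against 9495 and 9040 (log2 fold change 0.88, SE 0.20, limma adjusted p = 0.0397). Rnf213 was not called by edgeR. Of 46 ankyrin, spectrin and 4.1 genes, Ankrd6 fell from 395 and 332 to 106 and 34.7 together with Ank3.

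The largest of the 27 classes held the numbered Gm gene models. Of 2296 tested models with a numbered Gm symbol, 45 were called higher and 11 lower, and 1003 were separated above WT against 179 below. Called higher were 1.96% and lower 0.479%, beside 1.38% and 3.35% over all tested genes. Separated above were 43.7% and below 7.8%, against 26.5% and 27.1%. Their median log2 fold change was 0.50, and 0.35 for 684 Riken models and 0.44 for 693 lncRNA genes of RefSeq. Protein-coding genes of RefSeq had a median of -0.11, with 21% separated above and 32.7% below. The 1470 Gm models without a RefSeq symbol had 46.3% separated above and 4.76% below. Rescaling to equal totals or upper quartiles raised the Gm median to 0.62 and 0.66 and moved that of protein-coding genes to 0.01 and 0.05, which took the latter above 0. Both moved by about the shift of the median over all tested genes. Leaving out single libraries gave Gm medians of 0.29 without WT replicate 3, 0.71 without WT replicate 4, 0.58 without deficient-labelled replicate 1 and 0.46 without replicate 2. Gm models took 1.62% and 2.33% of reads outside the mitochondrial genome in WT and 2.98% and 3.21% in deficient-labelled libraries. After stimulation these shares were 2.19% and 2.07% in WT and 2.27% and 2.65% in deficient-labelled libraries.

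**Figure D5:**
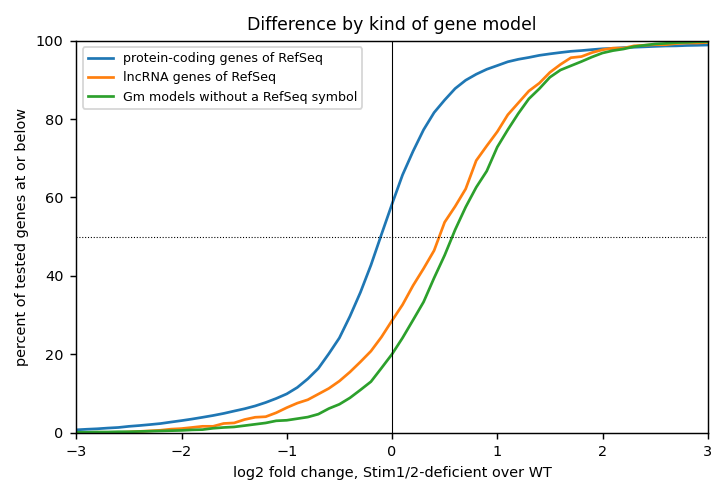
Cumulative percent of tested genes at or below each log2 fold change for 3 kinds of gene model. The curve of 1470 Gm models without a RefSeq symbol (green, median 0.57) and that of lncRNA genes (orange, median 0.44) lie right of the curve of protein-coding genes (blue, median -0.11).

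Gm37053, the Gm model with the largest rise among those averaging 100 or more in deficient-labelled libraries that lay within 2-fold, had 66.9 and 210 normalized counts in WT and 581 and 692 in deficient-labelled libraries (log2 fold change 2.41, SE 0.45, limma adjusted p = 0.0201). In it, as in Gm45191 with 55.0 and 170 against 542 and 402, WT replicate 3 was the lowest library. Gm7618 was an exception on the lower side, at 405 and 371 against 41.9 and 56.1 (log2 fold change -2.97, SE 0.38, limma adjusted p = 0.00593). Arhgap15os was at 44.2 and 129 against 294 and 365. Pitpnm2os2 and Bcas3os1 were the other opposite-strand transcripts called higher. The symbol pattern of this class also takes protein genes such as Oas2, so its count of 5 higher and 2 lower of 138 is not one of antisense RNAs alone. Whether counting used strand is not given in the sources used here, so reads of such a gene and of its partner cannot be told apart with certainty. Called higher protein-coding genes spanned a median of 40.9 kb in RefSeq, against 27.9 kb for called lower ones and 24.1 kb for all tested ones, over 128, 482 and 11474 genes.

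Among the X-linked genes that start within 10 Mb of Foxp3, 2 of 54 were called lower and none higher, a share on the lower side near the 3.35% of all tested genes. Ccdc22, the neighbor of Foxp3, rested on 84 reads in WT and 2 in deficient-labelled libraries, a ratio of 44.6 with a 95% counting interval of 12 to 374. The RefSeq span of Ccdc22 overlaps that of Foxp3, whose YFPcre allele was expressed only in the deficient cells. A part of that allele in the difference was not tested. Dynlt3, a dynein light chain gene, was at 1446 and 1459 against 718 and 717 (log2 fold change -1.02, SE 0.21, limma adjusted p = 0.0257). Of the 54 genes 22 were separated below and 4 above, where all tested genes had 27.1% and 26.5%.

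Mir155hg, the precursor transcript of miR-155, was named after its values were seen, because it is the 1 microRNA host gene called. It was at 422 and 687 in WT and at 161 and 223 in deficient-labelled libraries (log2 fold change -1.50, SE 0.28, limma adjusted p = 0.0199). In all, 37 microRNA host genes and precursors were tested, so 2.7% were called lower, beside 3.35% over all tested genes. Of the 37, 3 were separated below and 13 above. Mature miR-155 was not measured. Its main product, from RefSeq on GRCm38.p6 at chr16:84714143-84714165 on the plus strand, is shown with the seed (bases 2 to 8) in capitals.
miR-155-5p: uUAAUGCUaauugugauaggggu

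Promoters, taken as 250 bases before to 50 after the start in RefSeq on GRCm38.p6, were found by symbol for 401 of 517 lower, 115 of 213 higher and 9882 of 15419 tested genes, 1 promoter a gene. The core of the NFAT motif, GGAAAA on either strand, was in 22.4% of lower, 20% of higher and 21.1% of all tested promoters. The pattern TGANTCA was in 7.48%, 5.22% and 4.84%. It is wider than the AP-1 motif, which has C or G at the middle base, so its matches include other sites. The E2F motif TTTGGCGC or TTTCGCGC was in 4.99%, 0.87% and 1.61%. The ETS motif CCGGAAGT was in 4.99% of lower and 8.56% of all promoters, and CCAAT, the STAT motif TTCNNNGAA and the CRE motif TGACGTCA were in 42.1%, 6.98% and 1.75% of lower and 38.8%, 7.02% and 3.31% of all. The NF-kB motif was in 1.25% of lower and 0.476% of all. A match says only that these letters are present. The promoters of Cdk1 (chr10:69352863-69353162, minus strand) and Kif15 (chr9:122950831-122951130, plus strand) are shown as 2 of the 20 lower genes with an E2F match, in capitals. That of Zfp36l1 (chr12:80112964-80113263, minus strand) is shown as a lower gene with 2 NFAT cores and 1 match to TGANTCA. The latter match reads TGATTCA, without the C or G of the AP-1 motif.
Cdk1: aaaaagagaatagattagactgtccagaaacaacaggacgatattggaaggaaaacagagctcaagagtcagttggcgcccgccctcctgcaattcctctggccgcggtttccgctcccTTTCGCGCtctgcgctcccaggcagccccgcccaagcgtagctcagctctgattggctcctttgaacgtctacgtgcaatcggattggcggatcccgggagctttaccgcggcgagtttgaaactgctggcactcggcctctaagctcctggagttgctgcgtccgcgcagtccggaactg
Kif15: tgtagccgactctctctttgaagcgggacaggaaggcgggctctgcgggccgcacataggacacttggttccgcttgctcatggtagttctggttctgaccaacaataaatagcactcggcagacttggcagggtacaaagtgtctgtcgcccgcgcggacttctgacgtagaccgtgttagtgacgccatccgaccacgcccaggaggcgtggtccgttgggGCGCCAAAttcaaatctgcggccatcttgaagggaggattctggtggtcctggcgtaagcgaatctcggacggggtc
Zfp36l1: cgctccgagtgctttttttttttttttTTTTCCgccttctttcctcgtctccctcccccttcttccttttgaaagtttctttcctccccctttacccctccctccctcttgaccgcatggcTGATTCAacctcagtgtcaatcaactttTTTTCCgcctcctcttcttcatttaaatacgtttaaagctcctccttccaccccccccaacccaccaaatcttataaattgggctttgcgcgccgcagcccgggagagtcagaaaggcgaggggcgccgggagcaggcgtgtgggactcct
The 20 genes with an E2F match included Mcm3, Mcm5, Mcm6, Mcm7, Orc1 and Pola1, which act in DNA replication. Mcm6, a subunit of the replicative helicase, was at 4249 and 3389 in WT and 1078 and 1026 in deficient-labelled libraries (log2 fold change -1.85, SE 0.21, limma adjusted p = 0.0042).

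In stimulated cells, the same genes mostly kept their side. Of the 469 lower genes beyond the paper's list 428 were also below WT after 16 h, and of the 208 higher genes 181 were also above, without regard to a test. Of the 126 genes under the naming rule, 70 lower and 56 higher, 3 were also called in stimulated cells. The matching shares over all tested genes are not given, so these counts do not show whether the genes differ from others in this. In limma's interaction of genotype and stimulation, 0 of 15419 genes passed after Benjamini-Hochberg adjustment and 1257 had an unadjusted p under 0.05, which does not show that the differences were alike in both states. The 3 called in both states were Rnf213, Nckap5 and Gjb2, with log2 fold changes of 1.28, -4.68 and -3.80 after stimulation.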

How the data were processed

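RNA of sorted Treg cells was sequenced. Per the labels, a stranded TruSeq mRNA kit, STAR 2.7 and mm10 were used, whereas the study's methods name a TruSeq v2 kit, Bowtie and NCBIM37 with Picard and HTSeq. Both name DESeq2. The authors deposited a signal, the read count of a gene over the size factor of its library, and whole reads were recovered by division (all values below 1000 came out whole to within 0.006 normalized counts). For the main test a pseudocount of 1 was added, and log2 values of the 4 groups entered a single limma 3.58.1 model (eBayes with a trend, 2-sided, R 4.3.3). Alternatives were pseudocounts of 0.1 and 5, no filter, a mean of at least 100, equal totals, equal upper quartiles, the quasi-likelihood test of edgeR 4.0.16 and DESeq2 1.42.0, both on recovered reads, limma on the 4 unstimulated libraries, and each of these left out. DESeq2, the tool of the study, was an alternative, since the deposited values are normalized and a count test was kept out of the main result. The main limma fit, edgeR and DESeq2 were run on simulated counts, and the other alternatives were not.

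Named were up to 4 genes with the largest change in each class that held at least 3 called and separated genes beyond those of the paper. Also named were the 15 largest changes in each direction with a mean of at least 100, 2-fold agreement within the higher group, no marker of another cell type and no immunoglobulin or T cell receptor segment. Of the 126 genes under this rule, edgeR called 92 and DESeq2 123. A gene that edgeR left uncalled is not always marked as such in the text. Kif13a, Prdx1, Csf1, Zfp318, Mcm6 and the other E2F-matched genes, Mir155hg, Ccdc22 and Dynlt3 were chosen after their values were seen. The comparison, gene classes and lists were chosen with earlier results of these data known. Results on some gene classes are not reported here. Symbols of 13030 of 15419 tested genes matched RefSeq. Counting intervals (95%, exact binomial on summed reads) cover counting error only.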

Additional observations from a re-analysis of the deposited data

How the results depend on the processing

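Lower and higher calls numbered 517 and 213. They were 268 and 94 with every gene above 0 tested, 255 and 83 with limma on the 4 unstimulated libraries and 810 and 511 with DESeq2. Equal upper quartiles gave 332 lower calls and edgeR 131 higher calls. With single libraries left out, lower calls ranged from 8 to 924 and higher calls from 0 to 374, and the cause was not tested. Pseudocounts of 0.1 and 5, a mean of at least 100 and equal totals kept both counts within 1.5 times. Under any alternative none of the 126 genes under the naming rule changed sign. These genes were chosen as separated, so leaving out a library or changing the pseudocount could not reverse the sign. Of their tests, 1015 kept the side of the threshold and 584 did not. The lower calls with edgeR shared 352 genes with the 517, and those without deficient-labelled replicate 1 shared 404. For higher calls the shared genes were 131 and 64. No paired analysis was possible because the unstimulated groups share no replicate numbers. At 11851853 to 16306540 reads per library, genes with 3 or fewer reads in a library gave no fold beyond a counting interval.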
